A study of Mus musculus with 30 samples.

Results

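The collagen genes are the 44 protein-coding genes whose mouse symbol is Col, a number, the letter a and a number, from Col1a1 to Col28a1, among 55487 gene identifiers, of which 21974 are protein-coding. The members were taken by symbol alone, but the family was chosen with earlier results of these data known. RNA was measured in 30 mouse hearts, collected 8 weeks after transverse aortic constriction (TAC) or sham surgery. TAC is a clip across the aorta that raises the pressure the left ventricle works against. The question in the design text is what Cpt1a, which carries long-chain fatty acids into mitochondria for oxidation, does in the overloaded heart, with the gene removed or added. The floxed cohort holds mice with a floxed Cpt1a gene and no knockout (FF_sham and FF_TAC) and mice with a cardiac-specific knockout (KO_sham and KO_TAC), 4 libraries in each group. The labels do not name the Cre line, and the design text calls the same mice a knockdown. The AAV9 cohort holds C57Bl/6 mice given PBS (PBS_sham and PBS_TAC, 3 libraries each) or an AAV9 vector carrying Cpt1a, whose expression the design text calls cardiac-specific (AAV_sham and AAV_TAC, 4 libraries each). The PBS mice received no vector, so the vector and its Cpt1a cargo cannot be told apart. Ages are not given, and clips of 0.016 and 0.018 inch were used without a record of which mouse had which. The labels do not number animals, so the p-values measure the spread between these libraries.

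Collagens are triple helices of 3 alpha chains, and each gene encodes a single chain. Fibrillar collagens I, III and V form the load-bearing fibres between cardiac cells and are made mainly by fibroblasts. Collagen IV forms the network of basement membranes around myocytes and capillaries, collagen VI forms beaded filaments next to it, and collagen VIII forms short-chain hexagonal networks. FACIT collagens sit on the surface of fibrils, multiplexins sit in basement membrane zones, and transmembrane collagens stay in the cell surface. More interstitial collagen, called fibrosis, is a known feature of pressure-overloaded hearts.

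Levels are given as CPM, a gene's share of the library's counts in parts per 1000000 after TMM scaling within each cohort, and a gene was called at an adjusted p under 0.05 in edgeR's quasi-likelihood test across all genes. Total counts per library ran from 14839758 to 22070373. Cpt1a itself did not follow every label: it was at 46.3 CPM in the library labelled KO_sham 2, against 20.3 to 23.7 CPM in the other KO_sham libraries and 37.8 to 52.7 CPM in FF_sham. In the libraries labelled FF_TAC 2 and 3 it was at 20.3 and 16.2 CPM, against 48.9 and 34.0 CPM in FF_TAC 1 and 4 and 11.1 to 19.6 CPM in KO_TAC. Cpt1a was at 37.4 to 68.1 CPM in PBS_sham and 56.3 to 88.4 in AAV_sham, and at 40.3 to 61.6 in PBS_TAC and 44.8 to 62.7 in AAV_TAC, so the vector groups overlapped their controls. The libraries labelled KO_sham 2, FF_TAC 2 and FF_TAC 3 and all 4 KO_TAC libraries had summed haemoglobin transcripts of 1.40 to 51.1 CPM, and the other 23 libraries had 294 to 943 CPM. Summed early response genes such as Fos and Egr1 were at 2186 to 5924 CPM in the 7 haemoglobin-low libraries and at 248 to 376 CPM in the other floxed libraries. Because every KO_TAC library is haemoglobin-low, that property and the KO_TAC group cannot be told apart without those 3 libraries, whose Cpt1a goes against their labels. PBS_sham 3 stands apart as well: its 6 cardiomyocyte markers summed to 20399 CPM, against 46661 CPM or more in the other 13 libraries of its cohort.

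Of the 44 genes, the filter on low counts passed 35 in floxed and 36 in AAV9-cohort libraries. Col2a1, Col6a4, Col6a5, Col9a1, Col10a1, Col17a1, Col19a1 and Col24a1 passed in neither, and Col11a1 passed in the AAV9 cohort only. Per kilobase of exon, a scale on which genes can be compared, the summed level of all 44 genes over all libraries came to 44.7% from the 6 basement membrane genes and 29.0% from the 11 fibrillar genes. Beaded filament genes gave 14.1%, multiplexins 7.31%, FACIT collagens 2.34%, hexagonal network genes 1.99% and transmembrane collagens 0.335%. Col4a1 alone gave 22.2% and its partner Col4a2 20.0%, followed by Col3a1 with 9.79%, Col6a1 with 8.10% and Col1a1 with 7.30%. Col1a2 ranked 7 by this measure and 4 by the length of its longest coding transcript, because its annotated exons add up to 12426 bases and that transcript to 5348. Per kilobase of longest coding transcript, the basement membrane genes gave 37.8% and the fibrillar genes 35.7%. The gap between these classes therefore depends on the length used. The marker genes Col1a1, Col1a2 and Col3a1 were detected at 89.3 CPM or more in every library. In the GENCODE M21 annotation of GRCm38, Col1a1 lies on chromosome 11 (94936224 to 94953042), Col1a2 on chromosome 6 (4504814 to 4541544), and Col3a1 tail to tail with Col5a2 on chromosome 1, 24614 bases apart.

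The collagen share of all counts was 0.247 to 0.398% in KO_TAC, 0.158 to 0.278% in KO_sham, 0.173 to 0.239% in FF_TAC and 0.188 to 0.238% in FF_sham, so KO_TAC lay above both floxed groups and overlapped KO_sham. In the AAV9 cohort the share was 0.227 to 0.292% in PBS_TAC and 0.196 to 0.374% in PBS_sham, and 0.221 to 0.334% in AAV_TAC and 0.184 to 0.229% in AAV_sham. Mitochondrially encoded genes took 12.1 to 18.7% of the counts in KO_TAC and 19.3 to 26.0% in the 23 libraries that were not haemoglobin-low. Without them KO_TAC was at 0.281 to 0.489% and FF_TAC at 0.224 to 0.307%, and the ranges overlapped.

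Promoters of 5 members are shown because the genes differ in how they moved: Col8a1 and Col8a2 encode the chains of collagen VIII and were both called in KO_TAC, Col5a1 and Col27a1 are fibrillar genes called there, and Col3a1 was called in no comparison. Each line holds the 250 bases before the RefSeq start (GRCm38.p6), 5′ to 3′ on the gene's strand, with matches on either strand to the motifs searched in capitals.
Col8a1, chr16:57754738-57754987, minus strand: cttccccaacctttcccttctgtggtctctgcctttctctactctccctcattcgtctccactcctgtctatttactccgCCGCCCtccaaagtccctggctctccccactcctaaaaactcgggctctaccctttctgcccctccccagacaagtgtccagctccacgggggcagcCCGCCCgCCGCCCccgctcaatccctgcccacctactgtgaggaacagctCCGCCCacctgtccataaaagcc
Col8a2, chr4:126286544-126286793, plus strand: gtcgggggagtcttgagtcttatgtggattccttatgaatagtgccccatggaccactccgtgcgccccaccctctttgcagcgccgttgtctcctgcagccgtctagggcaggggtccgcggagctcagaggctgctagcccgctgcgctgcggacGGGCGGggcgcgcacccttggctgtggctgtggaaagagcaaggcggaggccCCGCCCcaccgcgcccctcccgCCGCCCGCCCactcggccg
Col5a1, chr2:27886175-27886424, plus strand: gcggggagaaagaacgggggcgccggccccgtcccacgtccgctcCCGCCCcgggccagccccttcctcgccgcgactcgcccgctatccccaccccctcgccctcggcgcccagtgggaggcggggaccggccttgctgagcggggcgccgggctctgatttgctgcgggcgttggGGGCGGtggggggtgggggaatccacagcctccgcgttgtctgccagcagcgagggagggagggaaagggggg
Col27a1, chr4:63215162-63215411, plus strand: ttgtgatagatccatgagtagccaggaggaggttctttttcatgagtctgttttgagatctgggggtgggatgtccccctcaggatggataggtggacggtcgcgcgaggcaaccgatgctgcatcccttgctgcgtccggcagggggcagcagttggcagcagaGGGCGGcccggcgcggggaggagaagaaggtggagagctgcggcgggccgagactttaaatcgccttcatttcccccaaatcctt
Col3a1, chr1:45311288-45311537, plus strand: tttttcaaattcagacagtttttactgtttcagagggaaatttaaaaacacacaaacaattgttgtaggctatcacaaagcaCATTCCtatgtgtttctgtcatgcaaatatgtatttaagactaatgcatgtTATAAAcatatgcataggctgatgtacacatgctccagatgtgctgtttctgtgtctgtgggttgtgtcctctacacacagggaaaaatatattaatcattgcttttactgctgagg

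The capitals mark GGGCGG, the GC box (CCGCCC on the other strand), in the first 4 sequences. In Col3a1 they mark TATAAA, the letters of the TATA box, with the first base 117 bases before the start. They also mark CATTCC in Col3a1, which read on the opposite strand is the TEAD factor motif GGAATG. Col8a1 and Col8a2 each held 4 GC boxes, and the last 2 in Col8a2 overlap. At least 4 such matches stood in 1344 of 32851 promoters, 4.09% of them. This cut equals the number in Col8a1 and Col8a2 themselves, so their passing it is not separate evidence. Among the 35 collagen genes with a RefSeq promoter here, only Col8a1 and Col8a2 held as many. The members without one include the called genes Col1a1, Col5a2, Col12a1 and Col14a1. The RefSeq table holds 38 promoters of 35 collagen genes, and 22 of the 38 (57.9%) held GGGCGG, against 32.7% of all promoters. Members with it include the called genes Col1a2, Col9a2 and Col16a1, which are not shown. They also include Col4a5, Col6a2, Col23a1 and Col25a1, which were called in no comparison. The promoter of Col4a1, called against KO_sham, held none. The 5 sequences shown therefore do not stand for called and uncalled members. CCAAT stood in 34.2% of the 38 against 33.8% of all, TATAAA in 13.2% against 12.4%, GGAATG in 10.5% against 12.6%, and TGANTCA, the site type of AP-1, in 2.63% (Col6a1) against 6.75%. The median GC content was 59.0% in collagen promoters and 52.4% in all promoters. These matches are letters in a window and were not tested as sites.

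After TAC, knockout hearts held more RNA of 8 collagen genes than both knockout hearts after sham and hearts labelled floxed after TAC: the fibrillar genes Col1a1, Col1a2, Col5a2 and Col27a1, the fibril-surface genes Col12a1 and Col16a1, and the hexagonal network genes Col8a1 and Col8a2. In KO_TAC against KO_sham, 10 of 35 tested members were called higher and 0 lower, with 25.9% of all 15581 genes called in either direction. The members' share, 28.6%, was close to that background. Of all genes, 2233 were called higher and 1797 lower, while every called member was higher. The median log2 fold change was 0.50 over the members and 0.021 over all genes. In KO_TAC against FF_TAC, 10 members were again called higher and 0 lower, which is 28.6% of those tested. Of all genes 14.3% were called, 1175 higher and 1060 lower. The median log2 fold changes were 0.56 over the members and 0.036 over all genes. The comparisons share the KO_TAC libraries, so calls in both are not independent. The share of all genes called in both is not given, so the count of 8 describes the members only. The 8 genes named first were called in both, Col4a1 and Col9a2 in the first only, and Col5a1 and Col14a1 in the second only. By class, 5 of 8 tested fibrillar genes, both hexagonal network genes and 3 of 7 FACIT genes were called against FF_TAC, and none of the 6 basement membrane, 4 beaded filament, 2 multiplexin, 3 transmembrane or 3 other genes. In bulk tissue, more cells of a type and more RNA per cell cannot be told apart.

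Col1a1, the alpha-1 chain of collagen I, was at 248, 242, 218 and 299 CPM in KO_TAC libraries 1 to 4. It was at 190.3, 89.3, 129 and 171 CPM in KO_sham, 97.0, 117, 133 and 146 CPM in FF_TAC and 108, 126, 136 and 115 CPM in FF_sham, each in the order of libraries 1 to 4. Every KO_TAC library lay above all 12 others. The level was 1.74-fold that in KO_sham (log2 fold change 0.80, adjusted p = 0.0114, SE 0.196) and 2.04-fold that in FF_TAC (log2 fold change 1.03, adjusted p = 0.00377, SE 0.197). Col1a2, the partner chain in the same helix, was at 352, 338, 280.4 and 427 CPM in KO_TAC, 270.2, 156, 174 and 209.6 CPM in KO_sham, 148, 189, 196 and 177 CPM in FF_TAC and 133, 180.5, 167 and 131 CPM in FF_sham. KO_TAC again lay above all 12 others, at 1.73-fold the KO_sham level (log2 fold change 0.79, adjusted p = 0.00732, SE 0.177) and 1.97-fold the FF_TAC level (log2 fold change 0.98, adjusted p = 0.00282, SE 0.177).

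Col3a1, the chain of the finer collagen III fibres, was at 499, 370.3, 332 and 612 CPM in KO_TAC and at 653, 143, 343 and 421 CPM in KO_sham, so that those groups overlapped. It was at 194, 235, 212 and 268 CPM in FF_TAC and 217, 278, 278 and 219 CPM in FF_sham, and every KO_TAC library was above all 8 of these. The gene was called in neither comparison: log2 fold change 0.22, adjusted p = 0.634, SE 0.319 against KO_sham, and log2 fold change 1.0, adjusted p = 0.0506, SE 0.322 against FF_TAC. The lowest value of the 16 came from the library labelled KO_sham 2 and the highest from KO_sham 1. Without KO_sham 2 the log2 fold change of KO_TAC against KO_sham was -0.072, with the other sign. Against FF_TAC it was called at 0.96 (adjusted p = 0.0359) without the 3 libraries that went against their Cpt1a label.

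**Figure D1:**
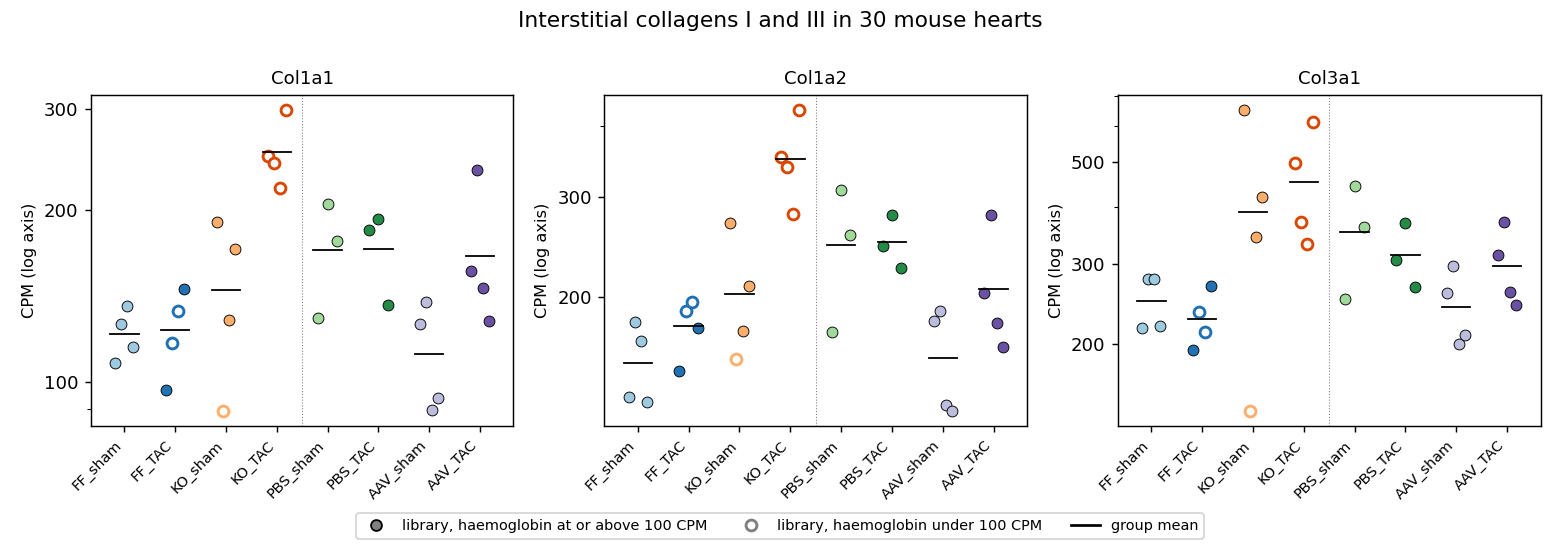
CPM of Col1a1, Col1a2 and Col3a1 (log axis) in each of the 30 libraries, by group. Points are libraries, open where summed haemoglobin transcripts were under 100 CPM, and lines are group means. All 4 KO_TAC points lie above every other floxed-cohort point for Col1a1 and Col1a2, while 1 KO_sham library exceeds them for Col3a1.

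Among the minor fibrillar genes, Col5a2, a chain of the collagen V that starts fibril assembly, was at 87.7, 106, 97.4 and 133 CPM in KO_TAC against 65.4, 33.9, 42.6 and 49.0 in KO_sham. In FF_TAC it was at 28.5, 48.1, 53.1 and 43.8 CPM and in FF_sham at 29.7, 37.7, 33.2 and 31.8 CPM. The lowest KO_TAC library was above the highest of the other 12. Col5a2 was 2.22-fold the KO_sham level (log2 fold change 1.15, adjusted p = 0.00262, SE 0.206) and 2.45-fold the FF_TAC level (log2 fold change 1.29, adjusted p = 0.00168, SE 0.207). Col27a1, a fibrillar collagen best known from cartilage, was at 11.5, 19.4, 31.1 and 27.4 CPM in KO_TAC and 7.97, 10.7, 8.12 and 8.62 CPM in KO_sham. In FF_TAC it was at 8.66, 6.81, 10.6 and 10.1 CPM. KO_TAC libraries 2 to 4 stood well above these 8 and KO_TAC 1 just above them. The log2 fold changes were 1.34 (SE 0.242, adjusted p = 0.00273) and 1.30 (SE 0.243, adjusted p = 0.00328). Col5a1, the partner of Col5a2, was at 85.6 ± 20.9 CPM (SD, n = 4) in KO_TAC and 58.1 ± 9.78 CPM (SD, n = 4) in FF_TAC, and was called only against FF_TAC (log2 fold change 0.56, adjusted p = 0.0418, SE 0.173). The groups overlapped, and 6 of the 8 fits that leave out a library lost the call. The remaining tested fibrillar genes, Col5a3 and Col11a2, had log2 fold changes from -0.14 to 0.25 in both comparisons and were not called.

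Collagen VIII showed large changes in its rarer and its common chain. Col8a1, the more abundant chain, was at 46.4, 155, 119 and 151 CPM in KO_TAC, 37.3, 25.6, 23.5 and 24.1 CPM in KO_sham, 22.4, 68.9, 67.7 and 49.4 CPM in FF_TAC and 14.4, 16.1, 20.2 and 11.1 CPM in FF_sham. KO_TAC 1 lay within the FF_TAC range and the other 3 KO_TAC libraries above it. FF_TAC 1 was the lowest of its group. Col8a1 was 4.26-fold the KO_sham level (log2 fold change 2.09, adjusted p = 0.00254, SE 0.373) and 2.26-fold the FF_TAC level (log2 fold change 1.18, adjusted p = 0.0413, SE 0.362), and the second call was lost in 5 of 8 fits that leave out a library. Col8a2 was at 4.04, 3.53, 5.28 and 4.70 CPM in KO_TAC, 0.599, 0.486, 0.520 and 1.67 CPM in KO_sham and 1.26, 1.03, 0.982 and 1.11 CPM in FF_TAC. All 4 KO_TAC libraries were above the rest. Its fold was 5.31 against KO_sham (log2 fold change 2.41, adjusted p = 0.00295, SE 0.445) and 3.99 against FF_TAC (log2 fold change 2.0, adjusted p = 0.00812, SE 0.437). The promoters of Col8a1 and Col8a2 each held 4 GC boxes, and a link to these levels was not tested.

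The FACIT class held the largest changes. Col12a1, which bridges fibrils in tissue under tension, was at 8.82, 10.7, 16.5 and 14 CPM in KO_TAC, 1.52, 1.95, 0.676 and 2.98 CPM in KO_sham, 1.54, 2.41, 3.25 and 2.21 CPM in FF_TAC and 0.978, 1.31, 1.42 and 1.11 CPM in FF_sham. The lowest KO_TAC library was above every other floxed-cohort library. The fold was 7.02 against KO_sham (log2 fold change 2.81, adjusted p = 0.000528, SE 0.350) and 5.32 against FF_TAC (log2 fold change 2.41, adjusted p = 0.000865, SE 0.343). Col16a1, another fibril-surface collagen, was at 26.2, 43.2, 52.3 and 41.3 CPM in KO_TAC, 16.6, 12.4, 9.16 and 16.4 CPM in KO_sham and 14, 14.2, 15.3 and 13.4 CPM in FF_TAC. KO_TAC lay above both without overlap, at 2.98-fold (log2 fold change 1.57, adjusted p = 0.000619, SE 0.209) and 2.87-fold (log2 fold change 1.52, adjusted p = 0.000765, SE 0.209). Col14a1, which binds fibrils and limits their thickness, was at 57.4, 22.3, 36.2 and 41.2 CPM in KO_TAC and 15.8, 10.9, 17.5 and 14.5 CPM in FF_TAC, without overlap, and was called higher (log2 fold change 1.42, adjusted p = 0.00473, SE 0.283). In KO_sham it was at 24, 25.7, 16.6 and 27.7 CPM, so KO_TAC 2 fell inside the KO_sham range and the gene was not called there (log2 fold change 0.74, adjusted p = 0.0590, SE 0.277). Col9a2, a chain of the cartilage collagen IX, was low throughout. It was at 2.12, 2.63, 3.34 and 5.30 CPM in KO_TAC and 0.323, 0.304, 0.208 and 0.732 CPM in KO_sham, and was called (log2 fold change 3.07, adjusted p = 0.00245, SE 0.542). In FF_TAC it was at 0.548, 3.01, 1.96 and 0.83 CPM, which overlapped KO_TAC (log2 fold change 1.08, adjusted p = 0.142, SE 0.481).

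**Figure D2:**
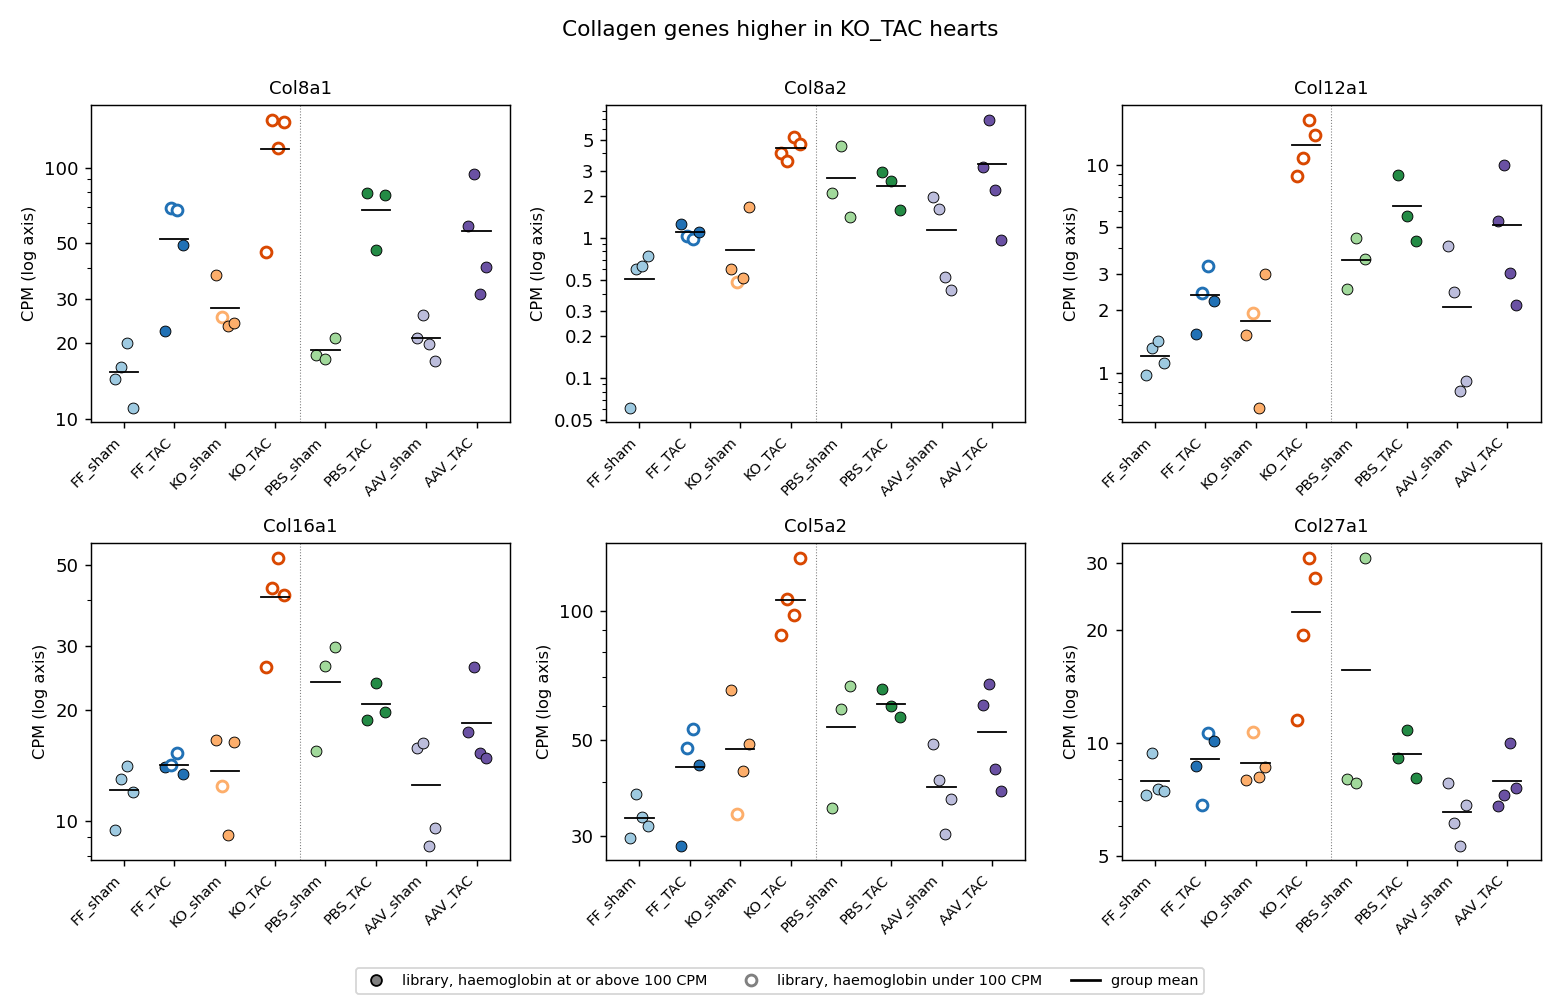
CPM (log axis) of 6 collagen genes called higher in KO_TAC against both KO_sham and FF_TAC, in each of the 30 libraries. Points are libraries, open where haemoglobin transcripts were under 100 CPM, and lines are group means. For Col8a2, Col12a1, Col16a1, Col5a2 and Col27a1 all KO_TAC points lie above those of the other 3 floxed groups, and for Col8a1 KO_TAC 1 lies among the FF_TAC points.

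The abundant network collagens had smaller fold changes. Col4a1, the main basement membrane chain, was at 562, 542, 532 and 765 CPM in KO_TAC and 415, 333, 444 and 471 CPM in KO_sham, without overlap, at 1.44-fold (log2 fold change 0.53, adjusted p = 0.0412, SE 0.179). The call was lost in 7 of 8 fits that leave out a library. Against FF_TAC, with 368, 515, 612 and 573 CPM, it was not called (log2 fold change 0.22, adjusted p = 0.431, SE 0.179). Col4a2, which joins Col4a1 in the helix, was not called either (log2 fold change 0.47, adjusted p = 0.0598, SE 0.176 against KO_sham and log2 fold change 0.10, adjusted p = 0.725, SE 0.175 against FF_TAC). Col4a1 and Col4a2 lie head to head on chromosome 8 with 22 exon bases in common on opposite strands. The ratio of their CPM stayed between 1.18 and 1.38 in all 30 libraries. In KO_TAC it was 1.32 to 1.38 and in KO_sham 1.25 to 1.35, against 1.20 to 1.27 in FF_TAC and 1.18 to 1.22 in FF_sham, so KO_TAC lay above both floxed groups. Col4a5, on the X chromosome, had log2 fold changes of 0.0059 and 0.0053. The beaded filament genes Col6a1 and Col6a2 were at 135 ± 42.3 CPM (SD, n = 4) and 155 ± 41.8 CPM (SD, n = 4) in KO_TAC and at 103 ± 6.35 CPM (SD, n = 4) and 113 ± 16.9 CPM (SD, n = 4) in FF_TAC, and were not called. Col6a3, the remaining common chain of collagen VI, had log2 fold changes of -0.38 against KO_sham and -0.031 against FF_TAC. The multiplexins Col15a1 and Col18a1, the second of which is the source of the fragment endostatin, had log2 fold changes of 0.40 and 0.50 against KO_sham and 0.29 and 0.67 against FF_TAC, with no call. The transmembrane collagens Col13a1, Col23a1 and Col25a1 ran from -0.0054 to 0.76 over the same comparisons, and Col7a1, Col26a1 and Col28a1 from -0.77 to 0.83, also with no call. Without a stated strand setting, reads from overlapping genes cannot be told apart. Exons of Col4a2, Col5a1 and Col15a1 share some bases with low-count antisense genes, and Col20a1 shares 79 bases with an overlapping gene on the same strand.

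Col6a6, a less common collagen VI chain chosen after its values were seen, went the other way. It was at 9.16, 0.0751, 0.0556 and 0.834 CPM in KO_TAC and 13.4, 12.5, 10.4 and 17.3 CPM in KO_sham, so all 4 KO_TAC libraries lay below all 4 KO_sham libraries. It was at 14.6, 2.11, 2.88 and 5.03 CPM in FF_TAC and 10.1, 11.2, 9.39 and 7.71 CPM in FF_sham, where FF_TAC 1 was the highest of the 8 and the other FF_TAC libraries the lowest. The change in KO_TAC against KO_sham was not called (log2 fold change -2.34, adjusted p = 0.0647, SE 0.896). With the atrial gene Myl7 as a covariate it was called lower, at -3.05 (adjusted p = 0.00797). KO_TAC 1, the library with 9.16 CPM, had the highest sum of the atrial genes Myl7, Sln and Myl4 (8482 CPM), while KO_TAC 2 to 4 had 3.63 to 6.76 CPM. In the 14 libraries where that sum was 60.0 CPM or more, Col6a6 was at 9.16 CPM or more. Both cuts are values from these data, the sum in AAV_sham 3 and the Col6a6 level in KO_TAC 1, so the split is only descriptive. Libraries with a lower sum went both ways. FF_sham 1, KO_sham 1, KO_sham 3 and AAV_sham 4, with sums of 1.89, 2.30, 2.71 and 2.12 CPM, had Col6a6 at 10.1, 13.4, 10.4 and 11.1 CPM. Every other library with a sum under 60.0 CPM had Col6a6 below 9.16 CPM. Without KO_TAC 1, Col6a6 was called lower against KO_sham (log2 fold change -5.31, adjusted p = 0.000519) and against FF_TAC (-4.21, adjusted p = 0.00278).

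With a term for haemoglobin-low libraries, KO_TAC against KO_sham called 4 members (Col1a1, Col8a2, Col12a1 and Col16a1) and KO_TAC against FF_TAC called 9, of which Col3a1 was added and Col5a1 and Col8a1 were lost. Without the 3 libraries that went against their labels, the counts were 9 and 11. The share of all genes called in these alternative fits is not given, so the counts describe the members only. Among the haemoglobin-low libraries alone, KO_TAC could be set against FF_TAC 2 and 3. There the 10 genes called against FF_TAC had log2 fold changes from 0.54 to 2.12. They had been picked as higher with these same libraries, so their direction here is not separate evidence. No member was called in that fit (smallest adjusted p = 0.212 among those 10, 10 members at an unadjusted p under 0.05). None was called against KO_sham 2 alone, with 13 at an unadjusted p under 0.05, where the lone library was assumed to vary like the others. Cpt1a in FF_TAC 2 and 3 was in or close to the KO_TAC range, so this contrast does not set knockout against control by that gene.

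Markers of cell types were counted in the same comparisons, in which 25.9% and 14.3% of all genes were called. Of 8 fibroblast markers, 2 were called higher against KO_sham (Dcn and Pcolce) and 4 against FF_TAC (those 2 with Dpt and Gsn). Their sum was 2688 to 3907 CPM in KO_TAC, 1819 to 2840.1 in KO_sham and 1712 to 2180.4 in FF_TAC. Pdgfra, a receptor that marks fibroblasts, was not called, at 34.9, 19.2, 23.5 and 27.2 CPM in KO_TAC and 35.6, 36.5, 32.0 and 34.9 CPM in KO_sham, where all but KO_TAC 1 lay below the KO_sham range. Of 6 markers of activated fibroblasts, 3 were called higher against KO_sham (Postn, Comp and Ltbp2) and 4 against FF_TAC (those 3 with Cthrc1), and their sum was 449 to 1203 CPM in KO_TAC, 179 to 249 in KO_sham and 151 to 223 in FF_TAC. Of 6 endothelial markers 4 and 3 were called lower, and their sum was 492 to 698 CPM in KO_TAC against 712 to 905 in KO_sham and 732 to 1002 in FF_TAC. Of 6 cardiomyocyte markers 3 were called lower in each, with sums of 42288 to 56322 CPM in KO_TAC, 49435 to 51749 in KO_sham and 49427 to 53539 in FF_TAC. The atrial genes Myl7, Sln and Myl4 summed to 8482 CPM in KO_TAC 1, the highest of all libraries, and to 3.63 to 6.76 CPM in the other KO_TAC libraries. They summed to 2.30 to 1674 CPM in KO_sham and 1.71 to 202 CPM in FF_TAC. Nppa, an atrial gene that overloaded ventricles also express, was at 8749.9, 7088, 8689 and 4500.2 CPM in KO_TAC and is left out of these sums. With Myl7 as a covariate, 12 members were called higher and Col6a6 lower against KO_sham, and 11 higher and Col6a6 lower against FF_TAC. The share of all genes called in that fit is not given, so these counts describe the members only. The fibroblast lists share Dcn, Lum, Pcolce, Ddr2, Postn and Comp with the pathway lists described next. Of 5 cartilage and tendon markers 3 were tested, Sox9 and Scx were called higher against KO_sham and Sox9 against FF_TAC, and the sum of all 5 was 28.4 to 38.9 CPM in KO_TAC, 10.6 to 18.6 in KO_sham and 7.18 to 23.6 in FF_TAC. Acan, the main cartilage proteoglycan, reached at most 1.43 CPM in these 12 libraries, in KO_TAC 1. Of 6 macrophage markers 3 were called higher against FF_TAC and 0 against KO_sham. The part of these cell types in the collagen values was not tested.

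Genes of the collagen pathway were examined from lists drawn up by role, in comparisons where 25.9% (against KO_sham) and 14.3% (against FF_TAC) of all genes were called. Of 23 tested genes for procollagen folding and processing, 9 were called higher in both comparisons and Adamts3, an enzyme that trims procollagen ends, was called lower against KO_sham only (-1.05). P4ha1, a subunit of the prolyl hydroxylase that stabilises the helix, changed by 1.30 and 0.90 on the log2 scale. Pcolce2 and Pcolce, enhancers of procollagen cleavage, changed by 1.1 and 0.89 against KO_sham and 1.14 and 1.09 against FF_TAC. Adamts2, which removes the amino-terminal propeptide, changed by 0.97 and 1.11. Of 5 cross-linking oxidases, Lox, Loxl1 and Loxl3 were called higher in both and Loxl2 against KO_sham, with Lox at 2.40 (adjusted p = 0.000619) and 2.56 (adjusted p = 0.000489). Of 9 collagen receptors, Mrc2, an endocytic collagen receptor, was called higher in both (0.74 and 0.58) and Ddr1, a receptor kinase, against FF_TAC (0.61), so 1 of 9 and 2 of 9 were called. Of 12 fibril partners, 6 were called higher in each comparison and Thbs2 lower against KO_sham. Comp was the largest (3.90 and 4.62), followed by Postn (2.87 and 2.32). Of 9 tested genes for collagen breakdown, Mmp2, Mmp14, Ctsk, Timp1 and Timp2 were called higher in both. The inhibitor Timp1 had 3.57 and 3.82, and the membrane-bound collagenase Mmp14 1.29 and 1.40. No gene of these lists was called in any other comparison.

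In hearts labelled floxed, TAC gave no called collagen gene in edgeR, but FF_TAC 2 and 3 had Cpt1a at 20.3 and 16.2 CPM, below every FF_sham library. FF_TAC against FF_sham called 0 of 35 members in edgeR, with 0% of all genes called. An unadjusted p under 0.05 was found for 5 members and for 1730 of all 15581 genes. DESeq2 called 1, Col8a1. The median log2 fold change of the members was 0.024. Col8a1 was 3.37-fold higher in FF_TAC (log2 fold change 1.75, adjusted p = 0.328, SE 0.373), and all FF_TAC libraries were above all FF_sham libraries, the highest being FF_TAC 2 and 3. Without FF_TAC 1 it was called (log2 fold change 1.99, adjusted p = 0.0451). Col1a1 (log2 fold change 0.023, adjusted p = 0.966, SE 0.195) and Col3a1 (log2 fold change -0.13, adjusted p = 0.886, SE 0.319) overlapped between the groups. KO_sham against FF_sham also called 0 members and 0% of all genes, and DESeq2 called 0 members. At an unadjusted p under 0.05 were 3 members and 814 of all 15581 genes. Col3a1 was 1.57-fold the FF_sham level (log2 fold change 0.65, adjusted p = 0.962, SE 0.320): KO_sham 1, 3 and 4 were above all FF_sham libraries and the library labelled KO_sham 2 below them. The difference between the TAC effects in knockout and floxed hearts was tested as an interaction. No member was called, with 0.0449% of all genes called. The interaction was positive for 30 of 35, meaning a larger rise or a smaller fall after TAC in the knockout (median 0.46, against 0.028 over all genes). An unadjusted p under 0.05 was found for 8 members and for 2048 of all 15581 genes in edgeR, and DESeq2 called Col12a1 and Col16a1. The smallest adjusted p was for Col16a1 (log2 fold change 1.35, adjusted p = 0.0912, SE 0.293), and Col12a1 had 1.86 (SE 0.497, adjusted p = 0.137). Without KO_TAC 1, 3 members were called: Col16a1 (1.5) and Col27a1 (1.35) higher and Col6a6 (-4.68) lower on the log2 scale. The share of all genes called in that fit is not given. The interaction for Col1a1 was 0.77 (SE 0.277) and for Col8a1 0.34 (SE 0.511), neither called.

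In the AAV9 cohort no member was called in any pairwise comparison, while Col8a1 rose after TAC when both treatments were averaged. PBS_TAC against PBS_sham called 0 of 36 members, with 0.0318% of all genes called, and DESeq2 called 3. An unadjusted p under 0.05 was found for 14 members and for 2903 of all 15730 genes. AAV_TAC against AAV_sham called 0 members, with 0.00636% of all genes called, and DESeq2 called 1. There 11 members and 1108 of all genes had an unadjusted p under 0.05. Averaged over PBS and AAV9.Cpt1a, TAC against sham called 1 member higher and 1 lower, with 0.909% of all 15730 genes called. DESeq2 called 7, the replicate block 1 and the fit with Myl7 as a covariate 0, and fits without a library called 1 to 5. The share of all genes called in these alternative fits is not given. Col8a1 was at 79.2, 46.9 and 77.6 CPM in PBS_TAC and 18, 17.4 and 21 CPM in PBS_sham, and at 58.6, 94.0, 31.6 and 40.2 CPM in AAV_TAC and 21.1, 25.9, 19.9 and 17.0 CPM in AAV_sham. TAC libraries lay above sham libraries without overlap under both treatments. The averaged change of Col8a1 was 3.11-fold (log2 fold change 1.64, adjusted p = 0.00966, SE 0.221), and it was called in all 14 fits that leave out a library. With Myl7 as a covariate it was not called (1.36, adjusted p = 0.125). Myl7, Sln and Myl4 summed to 60.0 CPM or more, a cut at the sum in AAV_sham 3, in 6 of 7 sham and 2 of 7 TAC libraries. In all 4 pairs of TAC and sham groups in the study, the Col8a1 ranges did not overlap, with log2 fold changes of 1.75, 2.09, 1.85 and 1.42 in the floxed, knockout, PBS and AAV9.Cpt1a mice. The cohorts were normalised apart, and the last 2 values share no library with the first 2. Col12a1 was at 8.95, 5.71 and 4.29 CPM in PBS_TAC and 2.52, 4.43 and 3.51 CPM in PBS_sham, and at 5.35, 9.97, 3.03 and 2.11 CPM in AAV_TAC and 4.08, 2.45, 0.819 and 0.909 CPM in AAV_sham, and was not called (log2 fold change 1.07, adjusted p = 0.190, SE 0.399).

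The interstitial genes did not separate by surgery. Col1a1 was at 129, 205 and 176 CPM in PBS_sham, 184, 192 and 136 in PBS_TAC, 127, 138, 89.4 and 93.8 in AAV_sham and 156, 234, 146 and 128 in AAV_TAC. PBS_TAC and PBS_sham overlapped, and so did AAV_TAC and AAV_sham. Col1a2 was at 174, 309 and 258 CPM in PBS_sham, 246, 279 and 225 in PBS_TAC, 181, 189, 129 and 126 in AAV_sham and 203, 279, 180.1 and 163 in AAV_TAC. Col3a1 was at 252, 445 and 361 CPM in PBS_sham, 306, 368 and 267 in PBS_TAC, 259, 297, 199.8 and 209 in AAV_sham and 313, 371, 260.0 and 244 in AAV_TAC. In AAV_TAC against AAV_sham the log2 fold changes were 0.57 (SE 0.218) for Col1a1, 0.40 (SE 0.214) for Col1a2 and 0.30 (SE 0.203) for Col3a1. In PBS_TAC against PBS_sham they were 0.0078 (SE 0.251), 0.019 (SE 0.246) and -0.17 (SE 0.234). None was called, and the signs for PBS changed when single libraries were left out.

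The vector comparisons called no collagen gene. In AAV_TAC against PBS_TAC, 0 members and 0.0381% of all genes were called, and DESeq2 called 1 member, Col5a3. At an unadjusted p under 0.05 were 1 member and 501 of all 15730 genes. The log2 fold change was -0.042 (SE 0.235) for Col1a1 and -0.079 (SE 0.218) for Col3a1. Col5a3, another collagen V chain chosen after its values were seen, was at 54.0, 57.8, 63.4 and 49.3 CPM in AAV_TAC, 32.1, 30.1 and 22.7 CPM in PBS_TAC, 43.8, 45.1, 46.3 and 45.8 CPM in AAV_sham and 48.1, 48.7 and 73.4 CPM in PBS_sham. PBS_TAC was below the other 3 groups without overlap. In edgeR Col5a3 was not called (log2 fold change 0.99, adjusted p = 0.0609, SE 0.164). The vector interaction, the difference between the TAC effects with vector and with PBS, called 0 members and 0.00636% of all genes. There 4 members and 1090 of all genes had an unadjusted p under 0.05, and DESeq2 called 1 member (Col5a3). AAV_sham against PBS_sham called 0 members and 0.0127% of all genes, and DESeq2 called 3 members (Col7a1, Col11a2 and Col18a1). An unadjusted p under 0.05 was found for 13 members and for 3261 of all 15730 genes. Of 36 members, 30 had a lower level in AAV_sham (median log2 fold change -0.43, against -0.027 over all genes). PBS_sham was uneven. Without PBS_sham 1, which left PBS_sham 2 and PBS_sham 3, AAV_sham against PBS_sham called 14 members lower. PBS_TAC against PBS_sham then called 7 (1 higher and 6 lower). Without PBS_sham 3, PBS_TAC against PBS_sham called 2 (Col8a1 higher and Col5a3 lower). The share of all genes called in these fits is not given, so the counts describe the members only.

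**Figure D3:**
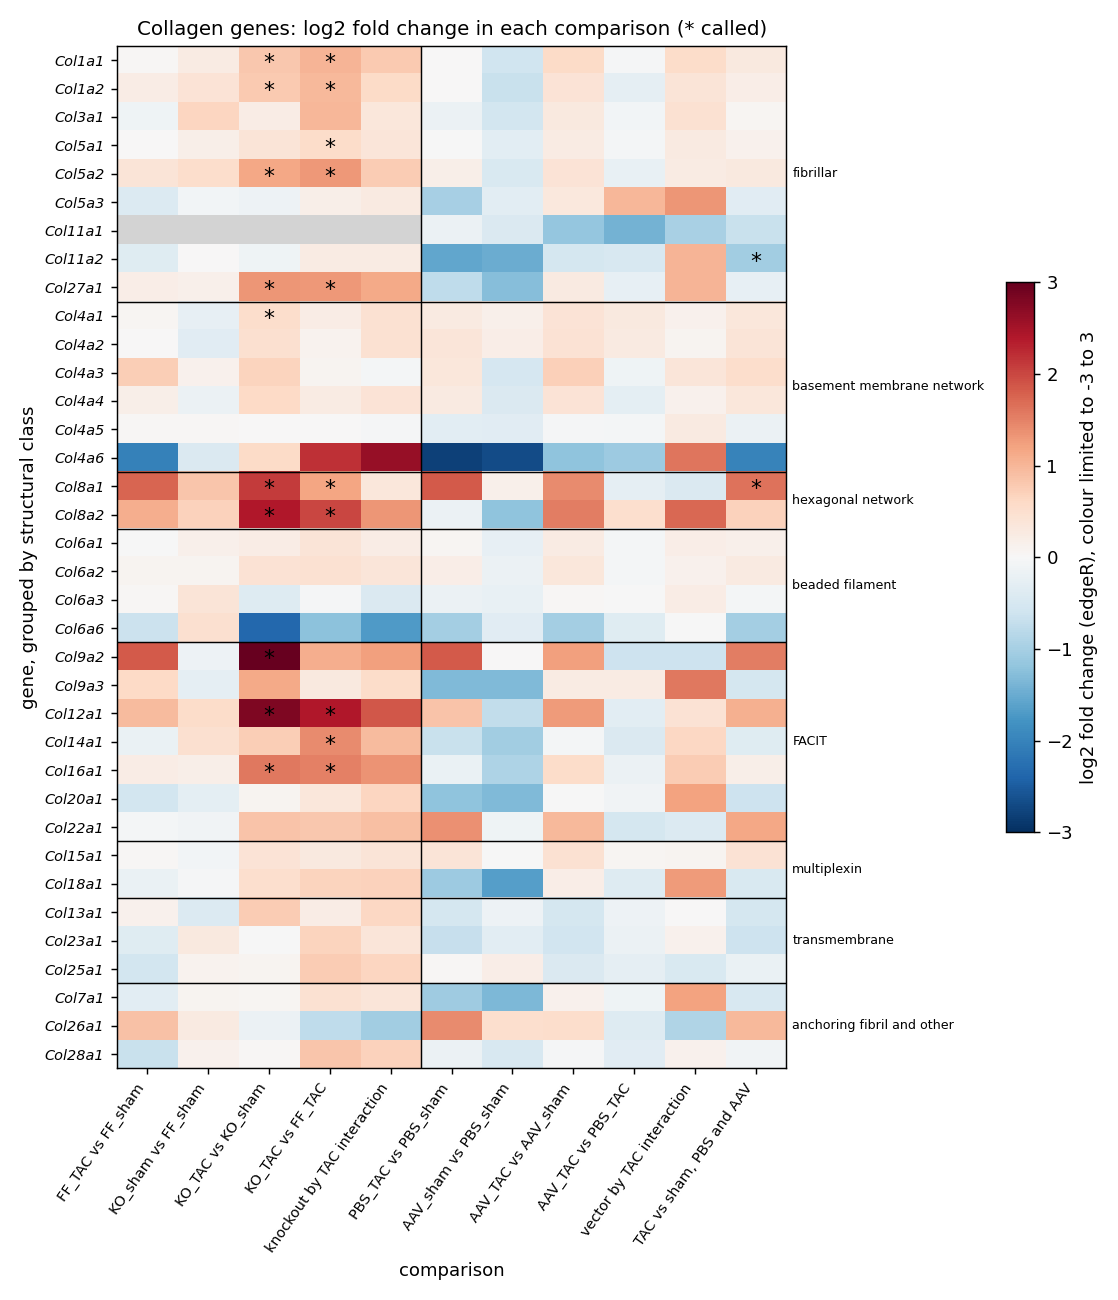
Log2 fold change of the 36 tested collagen genes (rows, by structural class) in the 11 comparisons (columns), red for higher in the first-named group and blue for lower, with asterisks at an adjusted p under 0.05. Grey marks a gene that was not tested, and the vertical line parts the floxed cohort from the AAV9 cohort. Of 22 asterisks, 20 stand in the columns of KO_TAC against KO_sham and KO_TAC against FF_TAC, and 2 in the averaged AAV9 column.

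Col11a2, a minor fibrillar chain, was the member called lower in the averaged AAV9 comparison (log2 fold change -1.05, adjusted p = 0.0366, SE 0.214). It was at 10.1, 11.5 and 26.5 CPM in PBS_sham, 5.85, 6.63 and 3.86 CPM in PBS_TAC, 6.20, 5.70, 5.09 and 5.76 CPM in AAV_sham and 3.85, 5.01, 3.47 and 3.36 CPM in AAV_TAC. PBS_sham 3 held the highest value. With Myl7 as a covariate it was not called (-1.0, adjusted p = 0.326). The call was lost in 12 of 14 fits that leave out a library, and it was kept without PBS_sham 3 and without PBS_sham 1. PBS_sham 3 also held the highest CPM of all libraries for Col4a6 (40.2), Col18a1 (83.2), Col7a1 (8.34) and Col20a1 (10.7), of which Col4a6 was chosen after its values were seen. In the same library the activated fibroblast markers summed to 1138 CPM, the endothelial markers to 1582 CPM and the adipocyte markers to 1399.5 CPM, each above every other library of the cohort. Col4a6 was next highest in KO_TAC 1 (13.5 CPM) and PBS_sham 2 (12.1 CPM), where Myl7, Sln and Myl4 summed to 8482 and 2604 CPM. In PBS_sham 3 they summed to 648 CPM, which ranked 9 of 30. The part of other heart regions in these values was not tested.

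**Figure D4:**
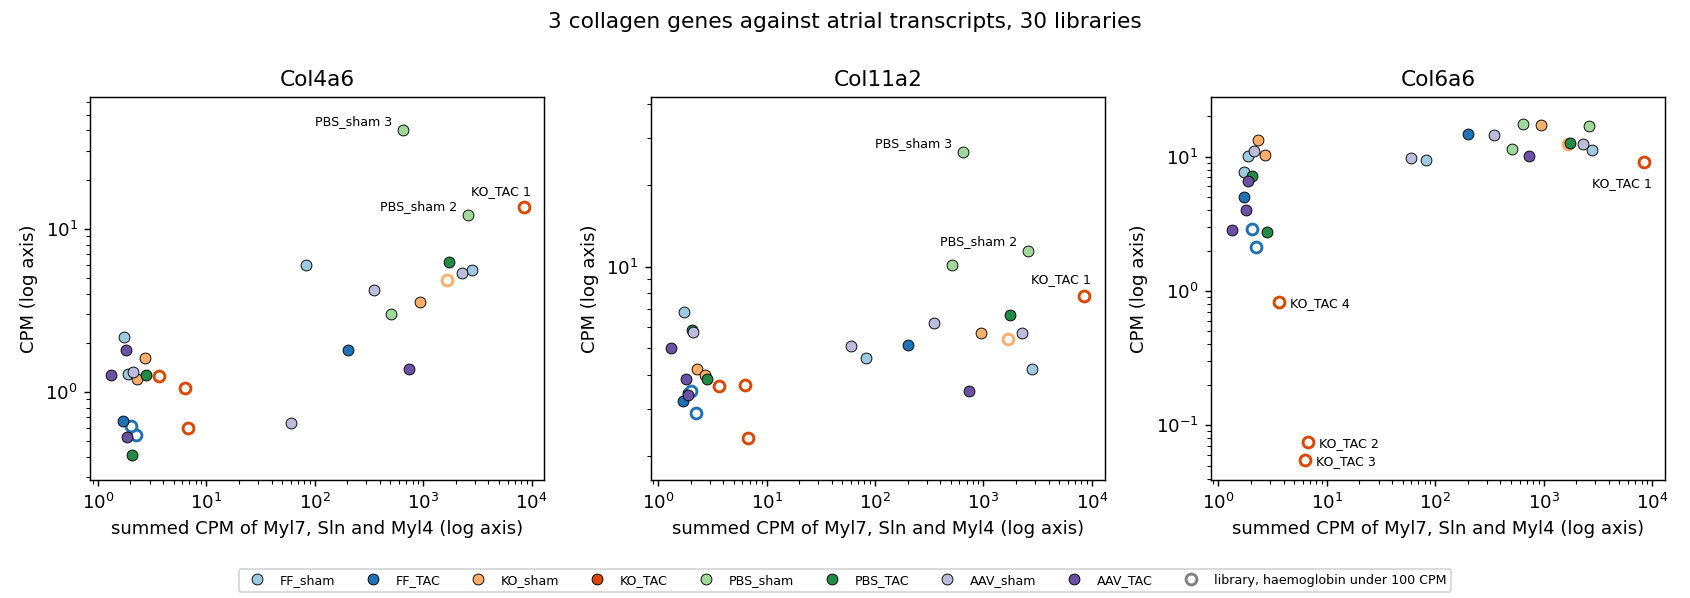
CPM of Col4a6, Col11a2 and Col6a6 (log axis) against the summed CPM of the atrial genes Myl7, Sln and Myl4 (log axis) in 30 libraries, coloured by group and open where haemoglobin transcripts were under 100 CPM. PBS_sham 3 is highest for Col4a6 and Col11a2 at an atrial sum of 648 CPM, and KO_TAC 2 to 4, at 3.63 to 6.76 CPM, are lowest for Col6a6.

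Ratios between chains were taken within libraries, where the scaling cancels. Per kilobase of exon, the ratio of Col1a1 to Col3a1 was 0.678 to 0.786 in FF_sham, 0.745 to 0.938 in FF_TAC and 0.730 to 0.985 in KO_TAC. In KO_sham it was 0.436 to 0.608 in libraries 1, 3 and 4, below every other library of the study, and 0.934 in the library labelled KO_sham 2. In the AAV9 cohort it was 0.688 to 0.769 in PBS_sham and 0.763 to 0.901 in PBS_TAC, and 0.669 to 0.730 in AAV_sham and 0.747 to 0.945 in AAV_TAC. The TAC libraries lay above the sham libraries in the second pair, and in the first they overlapped. The ratio of Col1a1 to Col1a2, the chains of collagen I, was 1.46 to 1.59 in AAV_TAC and 1.31 to 1.41 in AAV_sham, without overlap. It was 1.32 to 1.47 in KO_TAC, 1.09 to 1.54 in KO_sham, 1.17 to 1.56 in FF_TAC and 1.32 to 1.67 in FF_sham, which overlapped. In the haemoglobin-low libraries of FF_TAC and KO_sham it was 1.09 to 1.28.

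**Figure D5:**
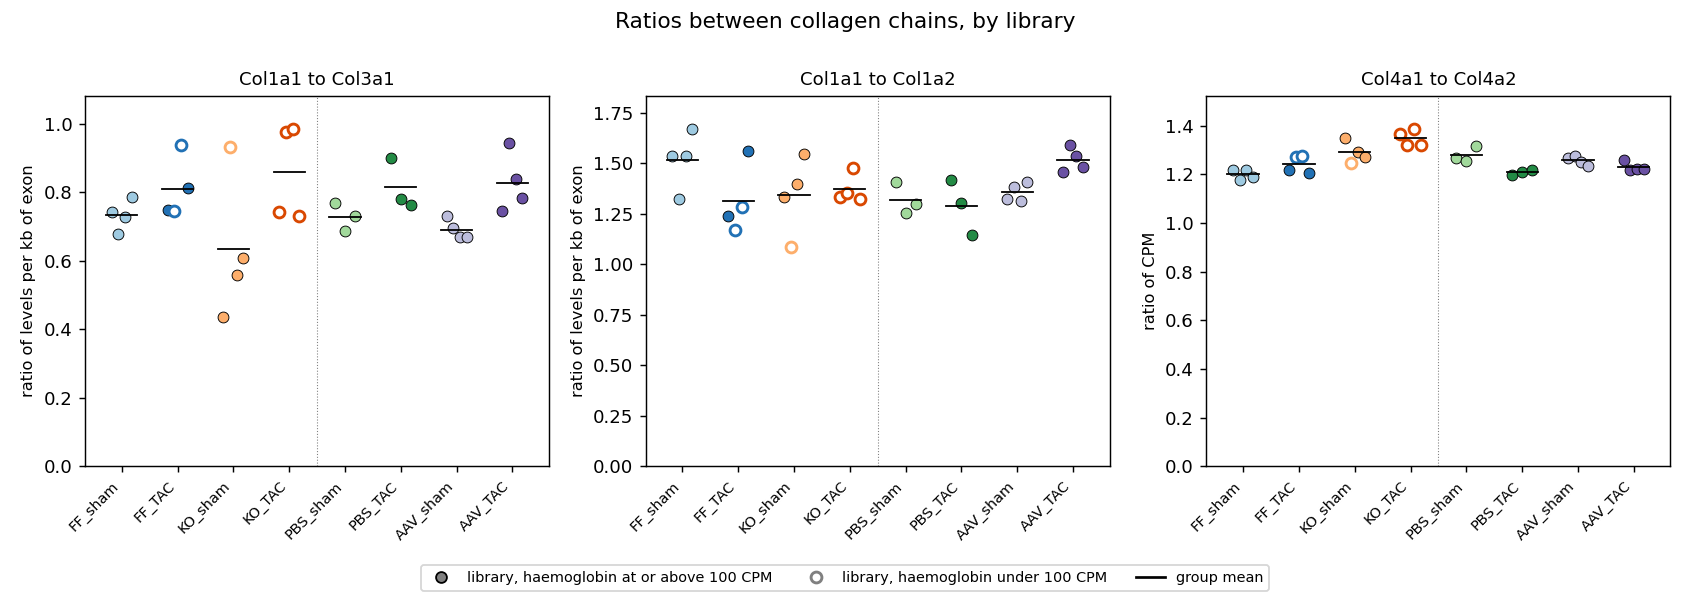
Ratio of Col1a1 to Col3a1 and of Col1a1 to Col1a2 per kilobase of exon, and of Col4a1 to Col4a2 in CPM, in each of the 30 libraries. Points are libraries, open where haemoglobin transcripts were under 100 CPM, and lines are group means. The 3 filled KO_sham points are the lowest for Col1a1 to Col3a1, and Col4a1 to Col4a2 spans the narrowest range.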

How the data were processed

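Poly(A)-selected, strand-specific libraries of 30 mouse hearts were sequenced paired-end, per the labels' protocols. The authors deposited raw counts per gene, with HISAT2 2.1.0, featureCounts of Subread 1.5.1 and GRCm38 named in the submitters' processing notes. The strand setting and annotation release are not given in the sources used here. Of 55487 identifiers, 55227 were matched to GENCODE M21, and unmatched ones held 0.0034% of the counts and were left out. Groups came from the genotype and treatment labels. The titles of the KO_TAC samples also contain the word sham, and their genotype, treatment and column labels were followed.

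The cohorts were fitted separately, a mean for every group, in edgeR 4.0.16 (R 4.3.3): TMM factors, the filterByExpr filter, the quasi-likelihood test and Benjamini-Hochberg adjustment over all 15581 (floxed) or 15730 (AAV9) genes tested, in 11 comparisons. The fit was tested on simulated data. Depths of 14839758 to 22070373 counts leave genes near 1 CPM at few counts, where intervals would cover counting error only. DESeq2 1.42.0, RLE factors, no filter, an atrial covariate (log2 CPM of Myl7), a haemoglobin term, a replicate block and leaving out libraries were alternatives. Leaving out KO_sham 2, FF_TAC 2 and FF_TAC 3 together, the longest-transcript lengths and leaving Nppa out of the atrial sum were chosen after seeing the data. Exon lengths are unions of annotated exons. No 2 libraries of a group were alike within counting noise. The named genes were Col1a1, Col1a2 and Col3a1, the 3 most abundant members per class by level per kilobase, and in each comparison the 3 largest rises and falls among called members, besides others said to be chosen after their values were seen. The collagen genes, the lists and these rules were chosen with earlier results of these data known.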

Additional observations from a re-analysis of the deposited data

Results flagged for a closer look

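In groups of 4 libraries, a single library stood apart from the other 3 by Dixon's criterion for a gap within the group's range in 10 of 179 groups examined, and chance gives about 1 in 20. In KO_TAC 4, Col4a1 was at 765 CPM against 532 to 562 CPM and Col4a2 at 579 CPM against 384 to 412 CPM, so that both chains of the pair stood apart in the same library. Col28a1 was at 2.17 CPM in KO_TAC 1 against 0.901 to 1.11 CPM in the others. In KO_sham 1, Col8a1 was at 37.3 CPM against 23.5 to 25.6 CPM, and Col13a1 was at 0.876 CPM against 1.52 to 1.57 CPM. In KO_sham 4, Col8a2 was at 1.67 CPM against 0.486 to 0.599 CPM. In FF_sham, Col5a1 was at 54.9 CPM in library 1 against 58.3 to 58.9 CPM, and Col27a1 at 9.38 CPM in library 2 against 7.27 to 7.51 CPM. In AAV_TAC 3, Col23a1 was at 5.05 CPM against 1.63 to 2.0 CPM, and in AAV_TAC 1 the ratio of Col4a1 to Col4a2 was 1.26 against 1.22 in each of the others. The causes were not tested.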

How the results depend on the processing

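The count of called members depended on a few settings, and the cause was not tested. For alternative fits, here and above, the share of all genes called is not given, so these counts describe the members only. DESeq2 called 1 in FF_TAC against FF_sham, 2 in the knockout interaction, 3 in PBS_TAC against PBS_sham, 3 in AAV_sham against PBS_sham, 1 in each of the other AAV9 comparisons but the averaged one, and 7 in the averaged one. Without a filter the counts were 3 in PBS_TAC against PBS_sham, 2 in AAV_sham against PBS_sham and 1 in each of AAV_TAC against AAV_sham, AAV_TAC against PBS_TAC and the vector interaction. In KO_TAC against KO_sham, 4 were called with the haemoglobin term and 0 in haemoglobin-low libraries alone, where KO_TAC against FF_TAC also had 0, with fewer samples. The averaged AAV9 count was 0 with the atrial covariate. The replicate number paired no libraries: same-number correlations of deviations ran from -0.40 to 0.43 in the floxed and -0.49 to 0.41 in the AAV9 cohort. With it as a replicate block the counts were 12 for KO_TAC against KO_sham, 10 against FF_TAC, 1 for the averaged AAV9 comparison and 0 in the others. Leaving out 1 library gave 9 to 12 calls in KO_TAC against KO_sham, 8 to 10 against FF_TAC, 0 to 1 in FF_TAC against FF_sham, 0 to 3 in the knockout interaction, 0 to 7 in PBS_TAC against PBS_sham, 0 to 14 in AAV_sham against PBS_sham and 1 to 5 in the averaged comparison. Signs that changed were of small, uncalled values. For Col1a1, FF_TAC against FF_sham was -0.015 with the atrial covariate and -0.00014 without KO_sham 2, FF_TAC 2 and FF_TAC 3, and AAV_TAC against PBS_TAC was 0.029 with the block and 0.0032 with the atrial covariate. For Col3a1, FF_TAC against FF_sham was 0.25 with the haemoglobin term, and KO_TAC against KO_sham -0.071 without those 3 libraries. Leaving out 1 library, Col1a1 ran from -0.076 to 0.12 in FF_TAC against FF_sham, -0.15 to 0.17 in PBS_TAC against PBS_sham and -0.25 to 0.065 in AAV_TAC against PBS_TAC. Col1a2 ran from -0.17 to 0.22 in PBS_TAC against PBS_sham. Col3a1 ran from -0.072 to 0.58 in KO_TAC against KO_sham, -0.35 to 0.043 in PBS_TAC against PBS_sham, -0.20 to 0.051 in AAV_TAC against PBS_TAC and -0.026 to 0.17 in the averaged comparison. Without mitochondrial genes the mean collagen share was 0.274% in FF_sham, 0.266% in FF_TAC, 0.299% in KO_sham, 0.374% in KO_TAC, 0.365% in PBS_sham, 0.336% in PBS_TAC, 0.270% in AAV_sham and 0.349% in AAV_TAC. The mean ratio of Col1a1 to Col3a1 was 0.510 in counts and 0.478 per kilobase of longest transcript, and that of Col1a1 to Col1a2 0.730 and 0.658.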
